A study of Mus musculus with 2 samples.

Results

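Matrix metalloproteinases (MMPs) and their tissue inhibitors (TIMPs) were followed in myeloid-derived suppressor cells (MDSC). The set was 9 genes chosen by symbol from the 32285 genes of both count matrices: the metalloproteinases Mmp8, Mmp9, Mmp12, Mmp13, Mmp14, Mmp19 and Mmp25 and the inhibitors Timp1 and Timp2. All 9 symbols were found, and each gene reached 20 CPM in at least 1 library, where CPM is the gene's count of unique molecular identifiers (UMIs), summed over cells and scaled to the UMI total of the same cells. The question put to the data was which cell types carried each gene and how its level differed between dabrafenib-treated (DAB) and vehicle-treated (DMSO) cells.

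MMPs are zinc-dependent proteases that cut collagens, elastin and other matrix proteins, and that also release or trim chemokines, cytokines and surface receptors. Most are made as inactive pro-enzymes whose propeptide must be removed, and TIMPs bind the active site of the mature enzymes. Neutrophils store Mmp8 (neutrophil collagenase) and Mmp9 (gelatinase B) in granules and carry Mmp25 on a lipid anchor, whereas macrophages secrete Mmp12 (macrophage elastase). Mmp13 is a collagenase best known from cartilage and bone, and Mmp14 is a membrane-bound collagenase that activates pro-Mmp2 together with Timp2. In tumours, myeloid MMPs are known for matrix remodelling and for the release of growth factors.

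The series held 2 single-cell RNA libraries of 10x Genomics 5′ chemistry, 1 per condition. Both came from bone marrow of female C57BL/6 mice, 10 weeks old, with no engineered allele named, and both were cultured for 4 days with GM-CSF at 50 ng/mL and the cytokine IL-6 at 50 ng/mL, which yields MDSC. The DAB library was grown with 1.5 µM dabrafenib, a BRAF inhibitor, and the DMSO library with its solvent, DMSO. The labels do not say how many mice went into a library, and cells of 1 library are not replicates, so no test between conditions was possible. Intervals below are exact 95% intervals that cover counting error only.

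After filtering, 9032 DMSO cells with 92352046 UMIs and 10476 DAB cells with 140907867 UMIs remained, with medians of 7528.5 and 9545 UMIs per cell, and 152 barcode sequences occurred in both libraries before filtering. Cells were clustered without any Mmp or Timp gene, and clusters were named from markers that hold no member of the set. Of 27 clusters, 14 took a name, and 49.2% of DMSO cells and 44.8% of DAB cells stayed in unnamed clusters. Names were rebuilt here from marker genes, so a class may hold other cells than a type of the same name in the study. The largest part of the mature PMN-like class was cluster D in DMSO (796 of 1033 cells) and cluster K in DAB (773 of 1764), and that of the chemokine-high granulocyte-like class was cluster H in DMSO (236 of 401) and cluster E in DAB (1131 of 1966). Markers of cells that make MMPs in other tissues were low: the 6 stromal markers summed to 0.476 CPM in DMSO and 0.916 CPM in DAB with Dcn at 0 in both, and the 5 endothelial markers summed to 59.3 and 85.5 CPM, of which Pecam1, also made by leukocytes, gave 48.5 and 81.3 CPM and Cdh5 0.0108 and 0.0355 CPM. The 6 osteoclast markers summed to 104 and 76.1 CPM, most of it Atp6v0d2, while Ctsk stood at 0.964 and 1.21 CPM.

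The 9 genes are protein-coding, and their positions are given for GRCm38 (GENCODE vM21). On the plus strand lie Mmp13 (ENSMUSG00000050578) at chr9:7272514-7283331, Mmp12 (ENSMUSG00000049723) at chr9:7344381-7369499 and Mmp8 (ENSMUSG00000005800) at chr9:7558456-7568485. Also on the plus strand are Mmp9 (ENSMUSG00000017737) at chr2:164940780-164955850, Mmp14 (ENSMUSG00000000957) at chr14:54431612-54445364, Mmp19 (ENSMUSG00000025355) at chr10:128790910-128800824 and Timp1 (ENSMUSG00000001131) at chrX:20870166-20874735. On the minus strand are Mmp25 (ENSMUSG00000023903) at chr17:23628311-23645277 and Timp2 (ENSMUSG00000017466) at chr11:118301069-118355740. Mmp13, Mmp12 and Mmp8 belong to a run of 10 MMP genes that covers 427 kb of chromosome 9 in the order Mmp13, Mmp12, Mmp1b, Mmp3, Mmp1a, Mmp10, Mmp8, Mmp27, Mmp20 and Mmp7. Within that run, Mmp8 held 53139 UMIs in DMSO and 84069 in DAB and Mmp12 held 100418 and 73044, but Mmp3, between them, held 0 and 1. The other genes of the run that were measured held far fewer UMIs than Mmp8 or Mmp12, with Mmp1b at 37 and 11 UMIs, Mmp10 at 14 and 5, Mmp20 at 3 and 6, Mmp7 at 4 and 97, and Mmp27 at 237 and 299, and Mmp1a was not analysed here. Neighbouring MMP genes thus differed widely in the same cells, and Mmp13, Mmp12 and Mmp8 themselves differed in cell type and in their relation to DAB, as set out below.

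Sequences before the transcript start are shown for the members of that run and for Timp1, the gene with the largest difference between libraries. RefSeq (GRCm38.p6) gave promoter windows for 7 of the 9 members, and the 250 bases before each start were searched on both strands for TGANTCA (AP-1), TGACGTCA (CRE), GAGGAA (PU.1), TTGCNNAA (C/EBP) and GGGCGG (GC box). Capitals mark the matches, each line runs 5′ to 3′ on the gene's strand, and all 4 genes lie on the plus strand.
Mmp13, chr9:7272264-7272513: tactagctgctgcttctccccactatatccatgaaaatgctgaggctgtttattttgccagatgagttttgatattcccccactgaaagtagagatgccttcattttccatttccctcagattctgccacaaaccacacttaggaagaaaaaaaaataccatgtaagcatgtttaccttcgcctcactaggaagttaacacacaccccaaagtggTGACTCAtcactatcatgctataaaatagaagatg
Mmp12, chr9:7347124-7347373: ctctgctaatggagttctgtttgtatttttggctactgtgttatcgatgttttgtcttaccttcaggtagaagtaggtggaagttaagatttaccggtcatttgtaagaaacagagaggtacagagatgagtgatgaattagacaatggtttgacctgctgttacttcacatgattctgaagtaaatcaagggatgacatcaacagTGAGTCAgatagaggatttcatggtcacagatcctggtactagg
Mmp8, chr9:7558179-7558428: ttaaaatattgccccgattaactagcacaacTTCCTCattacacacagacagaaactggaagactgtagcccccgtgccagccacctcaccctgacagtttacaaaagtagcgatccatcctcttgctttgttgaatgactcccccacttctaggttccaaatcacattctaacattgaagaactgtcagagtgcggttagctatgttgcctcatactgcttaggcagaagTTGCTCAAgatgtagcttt
Timp1, chrX:20869916-20870165: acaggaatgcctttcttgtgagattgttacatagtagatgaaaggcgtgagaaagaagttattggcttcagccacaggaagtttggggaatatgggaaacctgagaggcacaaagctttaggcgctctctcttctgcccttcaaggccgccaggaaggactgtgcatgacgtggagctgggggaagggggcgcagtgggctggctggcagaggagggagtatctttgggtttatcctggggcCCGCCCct

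AP-1 letters stood 35 bases before the Mmp13 start as TGACTCA and 44 bases before the downstream of the Mmp12 starts as TGAGTCA. These were the only matches to TGANTCA among the 8 windows of the members (RefSeq gives Mmp12 a pair of starts), and 6.75% of 32851 promoters of this length hold such a match. The Mmp8 window held TTCCTC, the reverse complement of the PU.1 letters, 219 bases before the start, and TTGCTCAA 19 bases before it, and these letters occur in 23.2% and 9.56% of promoters. The other Mmp12 window held TTCCTC 86 bases and TTAAGCAA 39 bases before its start. The Timp1 window held a GC box on the reverse strand 8 bases before the start, which 32.7% of promoters share, and no AP-1 match. CRE letters, found in 1.55% of promoters, were in none of the 8 windows. A match describes these letters only and says nothing of binding.

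Over all cells, DAB and DMSO differed by at least 2-fold (a log2 ratio of 1) for 5 of the 9 genes: 1 was higher in DAB (Mmp13) and 4 were lower (Mmp12, Mmp14, Mmp19 and Timp1). By the same rule 2.5% of all 5889 genes that reached 20 CPM were higher and 2.67% were lower. The 4 lower members are the membrane-bound Mmp14, the secreted Mmp12 and Mmp19 and the inhibitor Timp1, whereas the granule-stored Mmp8 and Mmp9 and the lipid-anchored Mmp25 were at or above their DMSO level. The median log2 ratio of the members was 0.05, beside 0.0076 for all genes counted. The members therefore lay on both sides of equality. In these totals fewer cells of a type and less RNA per cell cannot be told apart, which is why each gene was also followed within classes.

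Timp1, which inhibits most soluble MMPs, differed most of the members. It stood at 43.0 CPM (41.7 to 44.4, 3976 UMIs) in DMSO and at 4.02 CPM (3.69 to 4.36, 566 UMIs) in DAB, 10.7-fold lower, a log2 ratio of -3.42 (-3.55 to -3.30). Mmp19, a secreted protease found in monocytes and vessel walls, stood at 90.0 CPM (88.1 to 92.0) and 22.1 CPM (21.4 to 22.9), a log2 ratio of -2.02 (-2.08 to -1.96). Mmp14 stood at 69.9 CPM (68.2 to 71.7) and 17.4 CPM (16.7 to 18.1), a log2 ratio of -2.01 (-2.08 to -1.94). These proteases, 1 secreted and 1 membrane-bound, were thus lower by about the same factor. Mmp12 stood at 1087 CPM (1081 to 1094) and 518 CPM (514.6 to 522), a log2 ratio of -1.07 (-1.08 to -1.06).

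Mmp13 was the only member called higher over all cells. It stood at 12.4 CPM (11.7 to 13.2, 1147 UMIs) in DMSO and at 31.9 CPM (31.0 to 32.9, 4500 UMIs) in DAB, a log2 ratio of 1.36 (1.27 to 1.46). Mmp9 stood at 184 CPM (181 to 186) and 342 CPM (339 to 345), a log2 ratio of 0.90 (0.87 to 0.92) that missed the 2-fold limit. When every cell was given the same weight in place of every UMI, the Mmp9 log2 ratio was 1.14, past that limit, and that of Mmp12 was -0.63, short of it. Mmp25 stood at 14.4 CPM (13.7 to 15.2) and 24.4 CPM (23.6 to 25.2), a log2 ratio of 0.76 (0.67 to 0.85). Mmp8 and Timp2 lay nearest to equal levels, at 575 and 597 CPM for Mmp8 (log2 ratio 0.05, 0.04 to 0.07) and at 54.8 and 60.1 CPM for Timp2 (0.14, 0.08 to 0.19).

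**Figure D1:**
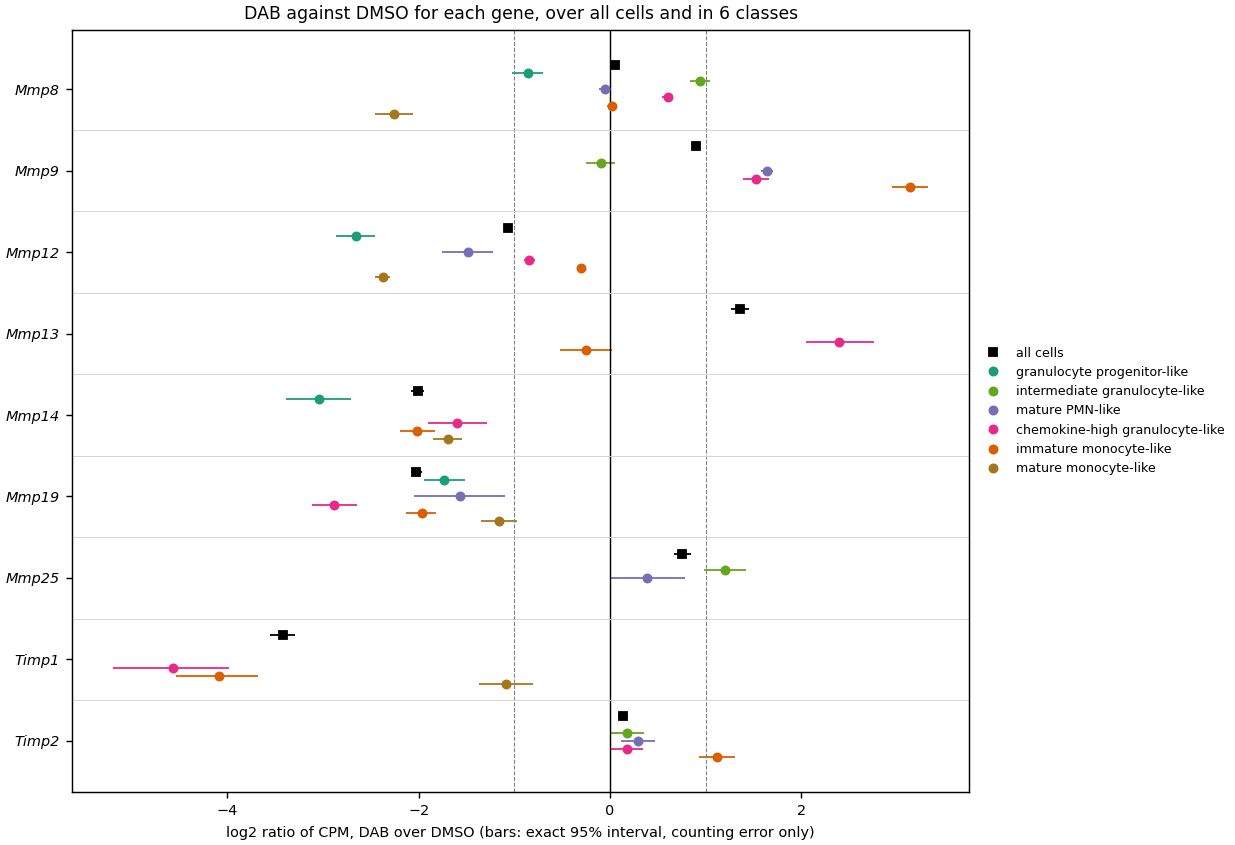
Log2 ratio of CPM, DAB over DMSO, on the horizontal axis for each of the 9 genes on the vertical axis, with dashed lines at -1 and 1, a square for all cells and a circle for each of 6 classes where the gene reached 20 CPM, and bars for exact 95% intervals of counting error. All Mmp14, Mmp19 and Timp1 points lie left of 0, while Mmp9 lies far right of 0 in immature monocyte-like (3.13), mature PMN-like (1.64) and chemokine-high granulocyte-like cells (1.52).

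Within the 6 classes that held at least 200 cells of each library, 35 pairs of a member and a class reached 20 CPM, and 6 were higher and 16 lower in DAB. In mature monocyte-like cells all 5 members counted were lower (Mmp8, Mmp12, Mmp14, Mmp19 and Timp1), where 5.96% of all genes counted were lower and 3.98% higher. Mmp9 was under the 20 CPM limit there, at 3.30 CPM in DMSO and 15.9 CPM in DAB, a log2 ratio of 2.27 (1.66 to 2.94). B cell-like cells held 6.79 and 7.33 CPM of it. S100a8, a granulocyte gene, stood at 3116 CPM in the 13 DMSO mature monocyte-like cells with an Mmp9 UMI and at 111 CPM in the 356 without. In DAB it stood at 1179 CPM in the 45 such cells with an Mmp9 UMI and at 165.5 CPM in the 426 without. The part of granulocyte RNA in this Mmp9 ratio was not tested. In granulocyte progenitor-like cells 3 of 4 were lower (Mmp12, Mmp14 and Mmp19) and none higher, beside 4.68% lower and 4.67% higher of all genes. Mmp13, under the limit and not counted there, held 0 UMIs in DMSO and 36 in DAB. In immature monocyte-like cells 3 of 8 were lower (Mmp14, Mmp19 and Timp1) and 2 higher (Mmp9 and Timp2), beside 4.29% and 3.07%. The monocyte-like classes thus held 8 of the 16 lower calls and the granulocyte progenitor-like cells 3. Chemokine-high granulocyte-like cells held 3 and mature PMN-like cells 2, so no lineage was read from the lower calls.

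Granulocyte classes held most of the higher calls, but also most of the pairs counted, so no lineage was read from this. In chemokine-high granulocyte-like cells 2 of 8 members were higher (Mmp9 and Mmp13) and 3 lower (Mmp14, Mmp19 and Timp1), beside 1.66% higher and 3.16% lower of all genes. In mature PMN-like cells 1 of 6 was higher (Mmp9) and 2 lower (Mmp12 and Mmp19), beside 2.87% and 2.14%. In intermediate granulocyte-like cells 1 of 4 was higher (Mmp25) and none lower, beside 6.37% and 3.33%, in a class whose median log2 ratio over all genes was 0.11. With 1 library per condition these counts describe 2 cultures.

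Mmp9, which cuts denatured collagen and type IV collagen, was highest, among the named classes, in mature PMN-like cells of both libraries. In these cells it stood at 622 CPM (597 to 647) in DMSO and at 1939 CPM (1906 to 1972) in DAB, a log2 ratio of 1.64 (1.58 to 1.71). Each of the 3 clusters of the class showed the difference, with 560.1 and 1802 CPM in cluster D, 792 and 1953 CPM in K and 519.5 and 2056 CPM in R, so the DAB levels lay close together and all above the DMSO levels. After thinning each cell to 1500 UMIs, 49.8% (46.6 to 53.0) of DMSO and 83.1% (81.2 to 84.9) of DAB cells of the class held an Mmp9 UMI (66.3% and 90.2% unthinned). In B cell-like cells, which should lack the gene, the thinned share was 0.699% in DMSO and 1.05% in DAB, at median depths of 3650 and 4548 UMIs against 2997 and 3352 in the mature PMN-like cells. Mmp9 UMIs in mature PMN-like cells were thus far above this background of free RNA.

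The difference was not found in all granulocyte-like cells. In intermediate granulocyte-like cells, which make secondary granule proteins, Mmp9 stood at 194 CPM (184 to 205) and 182 CPM (166 to 198), a log2 ratio of -0.10 (-0.25 to 0.05). Unnamed clusters varied. It was higher in DAB in C (366 and 719.8 CPM), led by Car4 and Ly6i, T (311 and 516 CPM), J (198 and 315 CPM) and G (123 and 153 CPM). In cluster B, led by S100a9, Ly6g and Cd177, it stood at 879 and 873 CPM, and in cluster Q, led by Retnlg and Ly6g, at 1416 and 1104 CPM. Cluster N, led by Chil3 and Gal, had the lowest ratio, with 365 and 162 CPM. Clusters B, Q and N therefore lay at or below equality, and the mature PMN-like clusters D, K and R above it. By its markers cluster Q was nearest to the mature PMN-like class (3 of 10 raised), so no stage was read from this contrast. Mmp9 reached 20 CPM in 16 of the 20 clusters that held 100 cells or more in both conditions, and 12 of these had a log2 ratio above 0, with a median of 1.14 and a range from -1.17 to 3.61.

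The steepest Mmp9 ratios stood in cells with little of it in DMSO. In immature monocyte-like cells it was 15.4 CPM (13.7 to 17.3) in DMSO and 135 CPM (127 to 143) in DAB, a log2 ratio of 3.13 (2.94 to 3.33), and in macrophage-like cells 26.2 CPM (19.6 to 34.4) and 320 CPM (292 to 350.3), a log2 ratio of 3.61 (3.20 to 4.05). B cell-like cells of the same libraries held 6.79 and 7.33 CPM. Of the 7 markers of the macrophage-like class, 6 were lower in DAB over all cells, among them C1qa (9.89 and 0.22 CPM) and Mrc1 (15.5 and 1.22 CPM), and Adgre1 was higher (113 and 150.3 CPM). The part of this in the ratios of the class was not tested. S100a8 was also higher in DAB, at 2457 and 7027 CPM in immature monocyte-like cells and at 820 and 4055 CPM in macrophage-like cells. B cell-like cells held 289 and 277 CPM of it. S100a9 stood at 1354 and 3536 CPM in immature monocyte-like cells and at 612 and 896 CPM in macrophage-like cells. Ly6g stood at 1.20 and 8.17 CPM in the former and at 2.02 and 4.07 CPM in the latter. The part of granulocyte RNA in the Mmp9 ratios was not tested. Csf3r, a receptor of mature neutrophils, stood at 3.64 and 4.14 CPM in immature monocyte-like cells and at 8.57 and 5.42 CPM in macrophage-like cells, beside 540 and 267 CPM in mature PMN-like cells.

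The Mmp9 ratio in immature monocyte-like cells was 1.50 when every cluster was given its nearest class, and cells of the class were also split by Mmp9. The 166 DAB cells with an Mmp9 UMI held 9289 CPM of S100a8, 11600 CPM of Spp1 and 7.09 CPM of Csf3r, and the 275 without held 5547, 12400 and 2.22 CPM. Spp1, a marker of this class, was thus high with and without Mmp9. S100a9 (3304 and 3688 CPM) and the neutrophil gene Retnlg (53.3 and 91.7 CPM) were lower in the DAB cells with Mmp9 than in those without. In DMSO the order was the reverse, with 1876 and 1304 CPM of S100a9 and 12.4 and 0.834 CPM of Retnlg, so Retnlg stood higher in DAB in both kinds of cell. Mmp12 stood at 1586 CPM in the DAB cells with Mmp9 and 2370 CPM in those without. In DMSO the 96 cells with an Mmp9 UMI held 2618 CPM of Mmp12 and the 970 without held 2545 CPM.

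Mmp8, the collagenase of specific granules, was high in more classes than Mmp9. In DMSO its order among named classes was macrophage-like (1204 CPM, 1156 to 1254), chemokine-high granulocyte-like (900.3 CPM, 866 to 936), mature PMN-like (801 CPM, 772 to 830.0), immature monocyte-like (570.4 CPM, 560 to 582) and intermediate granulocyte-like (246 CPM, 234 to 259), with no overlap of neighbouring intervals. In DAB the chemokine-high granulocyte-like cells came first with 1366 CPM (1349 to 1384), ahead of the macrophage-like cells with 1134 CPM (1081 to 1190). Mature PMN-like (801 and 772 CPM), immature monocyte-like (570.4 and 577 CPM) and macrophage-like cells differed by log2 ratios of -0.05, 0.02 and -0.09. Mmp8 was thus near equal inside these classes as well as in total. In the macrophage-like cells, whose Mmp8 level was the highest of the named classes in DMSO, the granulocyte gene S100a8 stood at 820 and 4055 CPM, against 11140 and 21380 CPM in mature PMN-like cells.

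Mmp8 departed from equality in other classes. It was higher in DAB in intermediate granulocyte-like cells, with 246 and 473 CPM (448.6 to 499), a log2 ratio of 0.94 (0.84 to 1.05), and in chemokine-high granulocyte-like cells, with a log2 ratio of 0.60 (0.54 to 0.66). It was lower in mature monocyte-like cells, with 104 CPM (97.1 to 112) and 21.8 CPM (19.4 to 24.4), a log2 ratio of -2.26 (-2.46 to -2.06). That ratio was -1.01 when the libraries were not aligned before clustering. B cell-like cells held 16.3 CPM in DMSO and 6.41 CPM in DAB, below the DAB level in mature monocyte-like cells. In granulocyte progenitor-like cells it stood at 98.4 and 54.2 CPM, a log2 ratio of -0.86.

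Mmp25, a lipid-anchored protease of the neutrophil surface, was highest, among the named classes, in one outside the neutrophils, while unnamed clusters held 51.8% of its UMIs in DMSO and 65.9% in DAB. Activated dendritic cell-like cells, named from Ccr7, Fscn1 and Ccl22, held 58.9 CPM (50.4 to 68.4) in DMSO and 159 CPM (140 to 179) in DAB, a log2 ratio of 1.43 (1.15 to 1.72) from 172 and 103 cells. Intermediate granulocyte-like cells held 51.8 CPM (46.4 to 57.7) and 119 CPM (107 to 133), a log2 ratio of 1.20 (0.98 to 1.42). The DMSO intervals of these leading classes overlapped, and the DAB intervals did not. Mature PMN-like cells held less, 21.0 and 27.5 CPM, and in the unnamed Ly6g-rich cluster Q the gene stood at 69.0 and 103 CPM. No Mmp25 UMI was seen in the B cell-like cells of either library, which at thinned depth (0 of 143 and 0 of 191 cells) allows shares of up to 2.10% and 1.57%. Of the 20 clusters above, Mmp25 reached 20 CPM in 10, and in all 10 its log2 ratio was above 0, from 0.18 to 1.43.

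**Figure D2:**
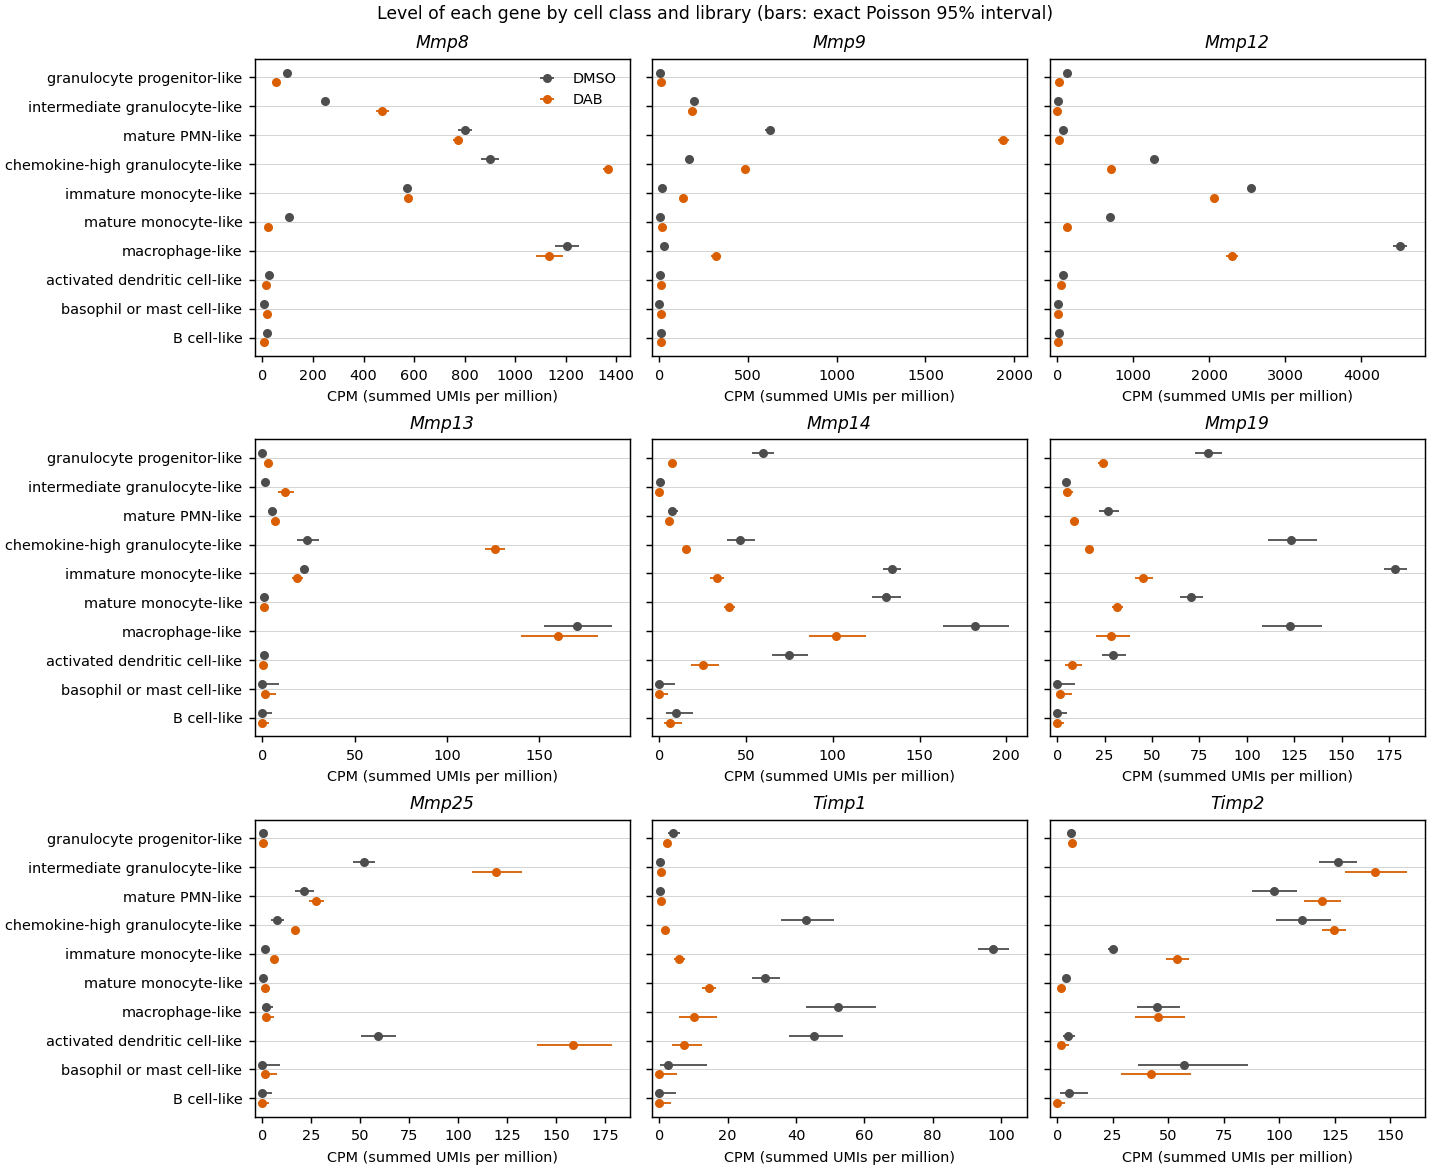
CPM of each gene on the horizontal axis, 1 panel a gene, in each class with at least 50 cells of both libraries, with a point for each library and bars for exact Poisson 95% intervals. Mmp9 peaks in mature PMN-like cells (622 and 1939 CPM), Mmp12 in macrophage-like cells (4508 and 2300 CPM), Mmp25 in activated dendritic cell-like and intermediate granulocyte-like cells, and Timp1 in immature monocyte-like cells of the DMSO library (97.8 CPM).

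Mmp12, the elastase of macrophages, was highest, among the named classes, in macrophage-like and then in immature monocyte-like cells. Its order in both libraries was macrophage-like (4508 CPM, 4415 to 4602, in DMSO and 2300 CPM, 2223 to 2379, in DAB), immature monocyte-like (2551 and 2060 CPM), chemokine-high granulocyte-like (1274 and 710.2 CPM) and mature monocyte-like (691 and 133 CPM), with no overlap between neighbours. Intermediate granulocyte-like cells held 6.13 and 2.09 CPM, at or under the B cell-like level of 20.4 and 10.99 CPM. The lower level in DAB was uneven across these classes. Over the 20 clusters above, 18 reached 20 CPM of Mmp12 and 4 of these were above equality, all unnamed: Q (7.19 and 61.4 CPM), O (446 and 669 CPM), C (356 and 486 CPM) and N (25.8 and 29.4 CPM). It was small in immature monocyte-like cells, with a log2 ratio of -0.31 (-0.33 to -0.28), and larger in macrophage-like cells (-0.97, -1.03 to -0.91) and mature monocyte-like cells (-2.38, -2.46 to -2.30). In granulocyte progenitor-like cells it stood at 133 CPM (124 to 142) and 21.0 CPM (18.6 to 23.8), a log2 ratio of -2.66 (-2.86 to -2.46).

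The small ratio in immature monocyte-like cells depended on the clustering: it ran from -0.77 to 0.37 over the alternative clusterings, and was 0.37 when Mmp and Timp genes were allowed to shape the clusters. Immature monocyte-like cells gave 46.7% of Mmp12 UMIs in DMSO, where they were 11.8% of cells, and 23.1% in DAB, where they were 4.21%. When the clusters of both libraries were given the same weights (the mean of their shares), the log2 ratio of Mmp12 over all cells was -0.70 in place of -1.07. The total ratio thus changed with the weights of the clusters and kept its direction. The parts of cell numbers and of level within classes were not told apart. The call in mature PMN-like cells rested on cluster R, whose 37 DMSO cells held 854 CPM and 397 DAB cells 15.4 CPM. Without that cluster the class stood at 37.6 CPM (31.5 to 44.6) and 32.1 CPM (27.5 to 37.2), a log2 ratio of -0.23 (-0.56 to 0.11).

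Chemokine-high granulocyte-like cells were not uniform for Mmp12. Its cluster E, led by Cxcl3 and Ccl2, held 1156 and 834 CPM, and its cluster H, led by Ccl4 and Ccl3, held 1418 and 325.5 CPM. Gpnmb, known from macrophages and osteoclasts, was also among the leading genes of both clusters, and the osteoclast marker Atp6v0d2 among those of H. Beside 540 and 267 CPM in mature PMN-like cells, Csf3r stood at 72.7 and 44.2 CPM in the chemokine-high granulocyte-like class. S100a8 stood at 13600 and 23110 CPM in this class. After thinning, 12.9% (371 cells) and 16.8% (1904 cells) of the class held an Mmp12 UMI (17.0% and 27.1% unthinned), an order against that of the CPM from which no difference was read. The gene sat in few, full cells: the top 1% of cells held 23.7% of its UMIs in DMSO and 28.9% in DAB, and single cells held up to 606 and 663 UMIs. In macrophage-like cells, 86.6% and 77.2% of thinned cells held a UMI (92.4% and 92.6% unthinned), and in mature monocyte-like cells 43.7% (38.6 to 49.0) and 13.2% (10.3 to 16.6) did (76.2% and 43.3% unthinned).

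Mmp13, a collagenase with type II and type I collagen among its substrates, drew its UMIs from other cells in DAB than in DMSO. In DMSO the highest level was in macrophage-like cells, at 170 CPM (153 to 190), against 24.0 CPM (18.7 to 30.4) in chemokine-high granulocyte-like and 22.3 CPM (20.2 to 24.6) in immature monocyte-like cells. In DAB the macrophage-like level was alike, 160 CPM (140 to 182, log2 ratio -0.09, -0.34 to 0.15), and that of the chemokine-high granulocyte-like cells was 126 CPM (121 to 131.5), a log2 ratio of 2.39 (2.05 to 2.76). Immature monocyte-like cells held 18.8 CPM (15.9 to 22.0). Among the 6 classes and the macrophage-like cells, where Mmp13 reached 20 CPM, only the chemokine-high granulocyte-like cells were thus higher in DAB. This rested on the clustering. The log2 ratio of these cells ran from 1.296, with no alignment, to 2.447 over the alternative clusterings. That of immature monocyte-like cells, -0.248 in the main clustering, ran from -0.2412 to 0.8414, so its direction was not settled. Under the 20 CPM limit, intermediate granulocyte-like cells held 1.23 CPM from 8 UMIs in DMSO and 12.2 CPM from 35 UMIs in DAB. Granulocyte progenitor-like cells held 0 and 2.89 CPM, and mature monocyte-like cells 0.963 and 0.734 CPM. Mature PMN-like cells held 5.06 and 6.62 CPM. Unnamed clusters held 294 of 1147 UMIs in DMSO and 1883 of 4500 in DAB.

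Both clusters of the chemokine-high granulocyte-like class showed the higher Mmp13 level, with 32.2 and 153 CPM in cluster E and 13.9 and 43.4 CPM in H. Their log2 ratios were 2.24 and 1.64, each below that of the class. Cluster H made up most of the class in DMSO and cluster E in DAB, so the class ratio also holds the mix of clusters. Outside the named classes, cluster Q (Retnlg, Ly6g) held 14.4 and 198 CPM, cluster B (S100a9, Ly6g) held 13.4 and 52.0 CPM, and cluster O, led by the non-coding Gm26917, held 1.15 CPM from 1 UMI and 136 CPM from 205 UMIs. Mmp13 lay above equality in 6 of the 8 clusters, of those 20, where it was counted. It was unevenly spread, and the top 1% of cells held 82.0% of its UMIs in DMSO and 48.1% in DAB, beside 60.3% and 65.5% for Timp1. After thinning, 1.12% of DMSO and 3.92% of DAB cells held a UMI (2.70% and 8.21% unthinned), beside 0 of 143 and 0 of 191 B cell-like cells.

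Cells with Mmp13 carried other genes in the 2 libraries. In DMSO, 59.4% (48.9 to 69.3) of the 96 thinned cells with Mmp13 also held Mmp12, against 21.3% of other cells, and 25.0% (16.7 to 34.9) held the neutrophil gene Ly6g, against 14.2%. In DAB, 25.8% (21.6 to 30.4) of the 399 cells held Mmp12, against 16.7% of other cells, and 32.8% (28.2 to 37.7) held Ly6g, against 7.10%. The chemokine Ccl3 was found in 27.1% of them in DMSO (13.3% of other cells) and in 38.1% in DAB (19.8%). Mmp13 thus sat with Mmp12 in most of its DMSO cells and in fewer of its DAB cells.

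The classes that gave most UMIs of a member differed between the libraries. The makeup of the libraries and the levels within classes differed too, and the part of each in these shares was not tested. Immature monocyte-like cells were 11.8% of DMSO and 4.21% of DAB cells, and gave 45.2% of Timp1, 39.4% of Mmp19 and 38.2% of Mmp14 UMIs in DMSO but 8.30%, 12.0% and 11.1% in DAB. Mature monocyte-like cells, 4.085% and 4.496% of cells, gave 5.66% and 35.0% of Timp1 UMIs. Chemokine-high granulocyte-like cells were 4.44% and 18.8% of cells, and gave 27.0% of Mmp8, 16.6% of Mmp9 and 24.4% of Timp2 UMIs in DAB. Mature PMN-like cells, 11.4% and 16.8% of cells, gave 13.8% and 28.0% of Mmp9 UMIs. With equal cluster weights in both libraries the log2 ratios over all cells were 0.93 for Mmp9, 1.63 for Mmp13, -1.55 for Mmp14 and -3.07 for Timp1, so each kept its direction.

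A large unnamed source of Mmp12 was cluster F, led by Cpa3, Il2ra and Cd200r3, genes of basophils and mast cells, of which only 2 of 6 markers of that class were raised. It held 331 DMSO and 960 DAB cells. In DAB it gave 20523 of the 73044 Mmp12 UMIs, more than the 16902 of the immature monocyte-like cells. In DMSO it gave 7656, against 46921 from those cells. Mmp12 stood there at 1924 CPM (1881 to 1968) and 1092 CPM (1077 to 1107), Timp1 at 81.7 CPM (73.0 to 91.1) and 5.64 CPM (4.62 to 6.82), and Mmp9 at 21.4 CPM (17.1 to 26.4) and 124 CPM (119 to 129). The named basophil or mast cell-like cells of the same libraries, in contrast, held 4.97 and 8.19 CPM of Mmp12. Lower Mmp12 and Timp1 with higher Mmp9 in DAB was not particular to cluster F. Macrophage-like cells and clusters H and J had these directions too. So did immature monocyte-like cells, whose Mmp12 ratio depended on the clustering.

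**Figure D3:**
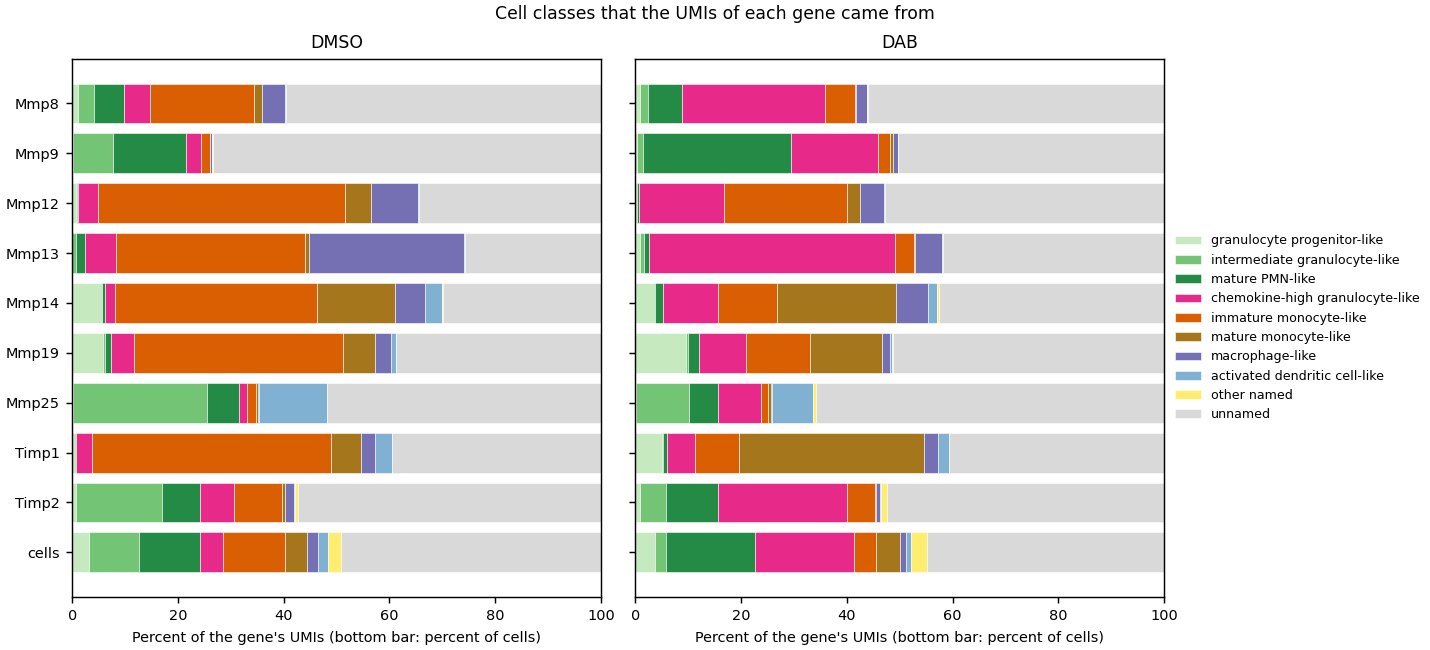
Percent of each gene's UMIs on the horizontal axis by the class of the cell they came from, with the percent of cells as the bottom bar, in DMSO and in DAB. Mmp13 UMIs shift from immature monocyte-like (35.8%) and macrophage-like cells (29.5%) in DMSO to chemokine-high granulocyte-like cells (46.6%) in DAB, and unnamed clusters hold from 25.6% (Mmp13) to 73.4% (Mmp9) of a gene's UMIs in DMSO.

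Mmp14 and Mmp19 were lower in DAB in each of the 20 clusters above where they reached 20 CPM. Mmp14, which cuts collagen at the cell surface, was highest, among the named classes, in macrophage-like cells, at 182 CPM (164 to 202) in DMSO and 102 CPM (86.1 to 119) in DAB. Immature monocyte-like (134 and 33.1 CPM) and mature monocyte-like cells (131 and 40.3 CPM) followed, and their intervals overlapped in both libraries. Activated dendritic cell-like cells held 74.8 and 25.4 CPM, granulocyte progenitor-like cells 59.6 and 7.23 CPM, and chemokine-high granulocyte-like cells 46.6 and 15.4 CPM. Later granulocytes held no more of it than the background, with 7.46 and 5.32 CPM in mature PMN-like cells against 9.503 and 6.41 CPM in B cell-like cells. Its log2 ratio was below 0 in all 13 of those 20 clusters where it was counted, with a median of -1.70 and a range from -3.04 to -0.25. Among smaller clusters, W, led by Mt2 and Mt1, went the other way, with 11.1 CPM from 13 UMIs in DMSO and 33.2 CPM from 15 UMIs in DAB.

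Mmp19 was highest, among the named classes, in immature monocyte-like cells of both libraries, at 178 CPM (172 to 184.5) and 45.5 CPM (41.0 to 50.3), a log2 ratio of -1.97 (-2.13 to -1.82). Chemokine-high granulocyte-like cells held 124 and 16.8 CPM, a log2 ratio of -2.88 (-3.11 to -2.65), which was -1.46 when the libraries were not aligned before clustering. Cluster H of that class held 186 CPM (164 to 211.5) in DMSO and 19.0 CPM in DAB, and its cluster E 72.1 and 16.05 CPM. Macrophage-like cells held 123 and 28.5 CPM, granulocyte progenitor-like cells 79.6 and 23.9 CPM and mature monocyte-like cells 70.6 and 31.6 CPM. Even mature PMN-like cells, with 26.9 and 9.06 CPM, kept the direction, and did so without cluster R (25.0 and 10.3 CPM). In all 17 of those 20 clusters where Mmp19 was counted the log2 ratio was below 0, from -3.30 to -0.98, with a median of -1.75. After thinning, 7.85% of DMSO and 2.68% of DAB cells held a UMI (30.6% and 18.2% unthinned), and no B cell-like cell did. Mmp19 was thus lower in monocyte-like and granulocyte-like clusters that held it, and with equal cluster weights its log2 ratio over all cells was -1.85.

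Timp1 was a gene of immature monocyte-like cells in DMSO, with 97.8 CPM (93.3 to 102), ahead of macrophage-like (52.4 CPM), activated dendritic cell-like (45.4 CPM) and chemokine-high granulocyte-like cells (42.8 CPM), whose intervals overlapped. In DAB the immature monocyte-like level was 5.73 CPM (4.21 to 7.62), 17.1-fold lower, a log2 ratio of -4.09 (-4.54 to -3.68). Chemokine-high granulocyte-like cells held 1.80 CPM (1.22 to 2.57) in DAB, a log2 ratio of -4.57 (-5.20 to -3.98), with 85.8 and 4.93 CPM in cluster H and 7.59 and 0.795 CPM in cluster E. Since cluster H made up most of the class in DMSO and cluster E in DAB, that ratio also holds the mix of clusters. Mature monocyte-like cells differed least, with 30.9 CPM (27.0 to 35.3) and 14.5 CPM (12.6 to 16.7), a log2 ratio of -1.09 (-1.37 to -0.81), and became the leading class in DAB, where their interval overlapped that of macrophage-like cells (10.2 CPM, 5.69 to 16.8).

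The Timp1 ratio was below 0 in all 8 of those 20 clusters where the gene was counted, from -4.12 to -1.09, with a median of -3.15. The highest level of all stood in the unnamed cluster X, led by Ccl17, Plet1 and C1qb, with 312.5 CPM in 142 DMSO cells and 20.2 CPM in 16 DAB cells. No Timp1 UMI was found in B cell-like cells, and mature PMN-like and intermediate granulocyte-like cells held under 1 CPM in both libraries. Over all cells the thinned share was 2.27% (1.96 to 2.61) in DMSO and 0.353% (0.248 to 0.489) in DAB, and 8.07% and 2.86% unthinned. In DMSO, 82.6% (76.5 to 87.6) of the 195 thinned cells with Timp1 also held Mmp12, against 20.3% of other cells, and in DAB 38.9% (23.1 to 56.5) of 36 such cells did, against 17.0%. Timp1 thus sat mostly in cells with macrophage elastase in DMSO, and DAB left few cells with Timp1 to compare.

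Timp2, the inhibitor that also serves pro-Mmp2 activation, followed the granulocytes and differed little between libraries over all cells. Its leading classes were intermediate granulocyte-like (126 CPM, 118 to 135, in DMSO and 143 CPM, 130 to 158, in DAB), chemokine-high granulocyte-like (110.3 and 124 CPM) and mature PMN-like cells (97.4 and 119 CPM), whose neighbouring intervals overlapped in both libraries. Among the 6 classes Timp2 passed the 2-fold rule in immature monocyte-like cells, with 25.0 CPM (22.7 to 27.4) and 54.1 CPM (49.2 to 59.4), a log2 ratio of 1.12 (0.93 to 1.31). Of the unnamed clusters, F also stood higher (13.8 and 31.3 CPM, log2 ratio 1.18), and N (92.0 and 50.5 CPM, -0.87) and Q (267.5 and 162 CPM, -0.73) stood lower. Mature monocyte-like cells, with 3.99 and 1.91 CPM, held about as little as B cell-like cells, with 5.43 and 0 CPM. In immature monocyte-like cells the inhibitors therefore differed in opposite directions, Timp1 lower and Timp2 higher in DAB. With every cluster assigned to its nearest class the Timp2 ratio there was 0.35, so its size rests on how the class is drawn.

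**Figure D4:**
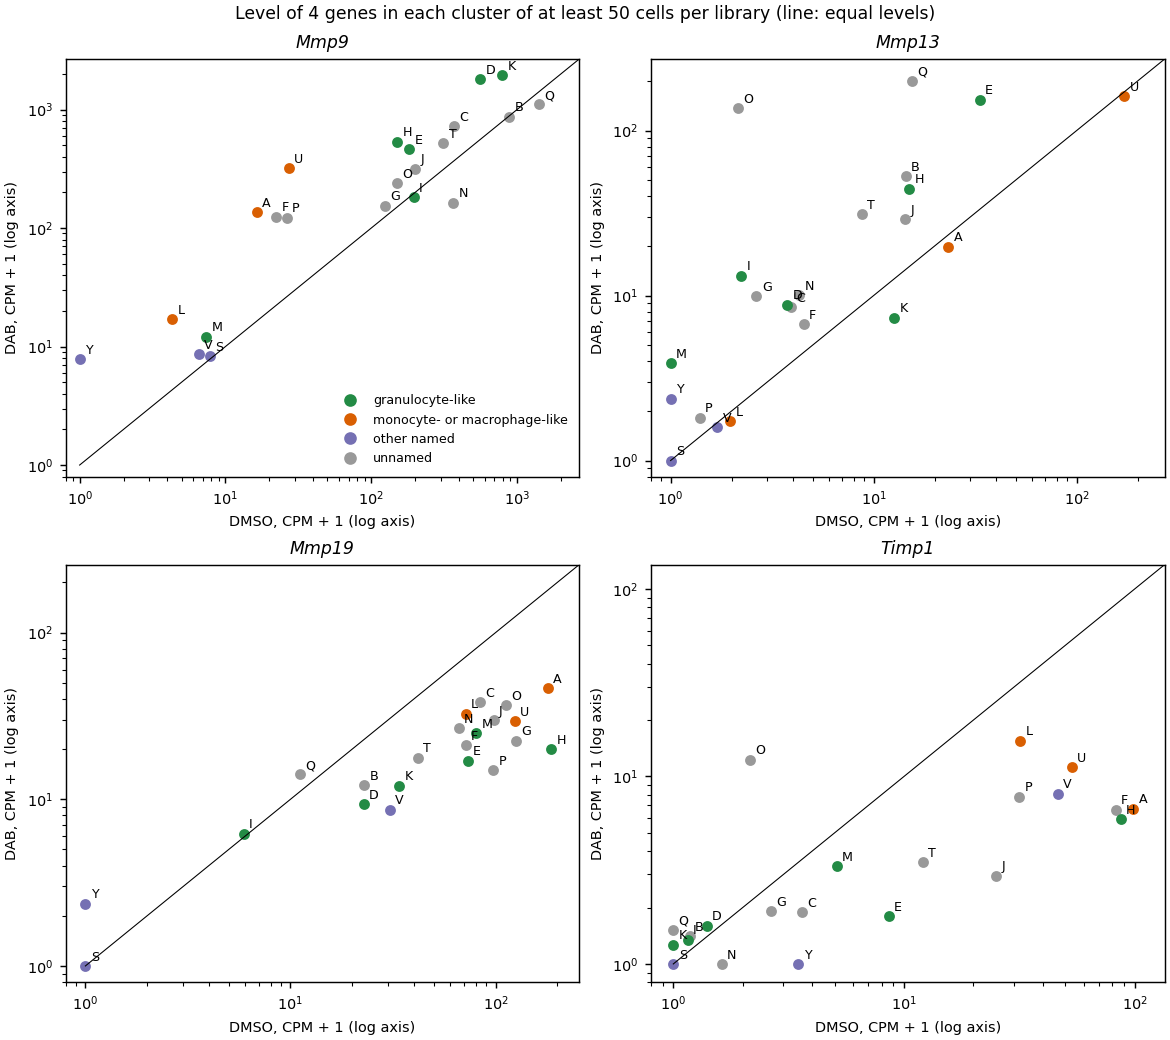
CPM + 1 of 4 genes (Mmp9, Mmp13, Mmp19 and Timp1) in each of the 22 clusters that hold 50 cells or more of both libraries, DMSO on the horizontal and DAB on the vertical log axis, with a line at equal levels, letters for clusters and colours for granulocyte-like, monocyte- or macrophage-like, other named and unnamed clusters. All Mmp19 and Timp1 points with 20 CPM or more in either library lie under the line, and Mmp13 points lie above it where either library holds 20 CPM or more except in the immature monocyte-like cluster A (22.3 and 18.8 CPM) and the macrophage-like cluster U (170 and 160 CPM).

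Levels of the members over clusters of at least 50 cells (24 in DMSO and 23 in DAB) held a granulocyte and a monocyte group, which did not take in every member. Pearson correlations of log2(CPM + 10) are given as a description; the clusters share a library, its depth and its free RNA. Mmp9 went with Timp2 (0.86 in DMSO and 0.85 in DAB) and with Mmp8 (0.76 and 0.88), and Mmp12 with Mmp14 (0.87 and 0.70) and Mmp19 (0.84 and 0.73). Timp1 went with Mmp14 (0.84 and 0.83). Mmp9 and Timp1 had correlations of -0.51 and -0.29. The groups were less apart elsewhere: Mmp9 stood at -0.31 and 0.14 with Mmp12, and at 0.69 and 0.36 with Mmp25. Mmp8 was positive with Mmp13 (0.54 and 0.66) and with Mmp19 (0.47 and 0.37).

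Of 8887 genes compared over the DMSO clusters, those most like Mmp9 were the formyl peptide receptor Fpr1 (0.98, and 0.90 in DAB), Slfn4 (0.97 and 0.91) and Slfn1 (0.96 and 0.98). Mmp8 was most like Fam20c (0.96 and 0.94), Bst1 (0.95 and 0.90) and Wfdc21 (0.94 and 0.95), and genes like Mmp12 included the integrin Itgax (0.92 and 0.81) and Fblim1 (0.91 and 0.83). Timp2 was closest to Grina (0.94 in both), Mirt2 (0.91 and 0.89) and Hcst (0.89 and 0.76). For these genes the DAB correlations were thus 0.76 or more. The genes were picked by their DMSO values, so the DMSO and DAB values do not compare on equal terms.

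Each of the other members had at least 1 gene whose DAB correlation was lower than these. Mmp13 was most like Wnk2 (0.87, and 0.48 in DAB), the oxysterol enzyme Ch25h (0.86 and 0.64) and Wfdc17 (0.85 and 0.60). Mmp19 was most like Rbfox2 (0.91 and 0.71), coagulation factor F7 (0.90 and 0.46) and Ehd4 (0.90 and 0.76), and Mmp14 most like Olfm1 (0.97 and 0.79), Sdc3 (0.96 and 0.83) and Emp2 (0.95 and 0.61). Timp1 was most like Dcstamp, a protein of cell fusion in osteoclasts and giant cells (0.93 and 0.90), Rab3il1 (0.91 and 0.32) and Mras (0.90 and 0.66). Mmp25 was most like Crispld2 (0.92 and 0.85), Gucd1 (0.88 and 0.58) and Msl1 (0.80 and 0.52).

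Cells that held both members of a pair were counted at thinned depth. Of cells with Mmp8, 38.4% (36.8 to 39.95) in DMSO and 52.2% (50.7 to 53.7) in DAB also held Mmp9, against 16.5% and 28.5% of other cells. Of cells with Mmp12, 4.13% (3.27 to 5.13) in DMSO and 20.2% (18.4 to 22.2) in DAB also held Mmp9, against 31.9% and 42.2% of other cells. Mmp9 was thus found less in cells with Mmp12 than in other cells of either library. Mmp8 was not: 24.1% (22.7 to 25.5) and 19.9% (18.7 to 21.1) of cells with Mmp8 held Mmp12, against 19.9% and 14.98% of other cells. Doublets that escaped the filter and free RNA can add such cells, and their part was not tested.

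The other MMPs and inhibitors were barely expressed over all cells. Of 19 listed, 18 were in the matrices, 8 held at least 20 UMIs in a library and none reached 20 CPM. Mmp2, the gelatinase that Mmp14 activates, stood at 2.53 CPM in DMSO and 2.47 CPM in DAB, Mmp27 at 2.57 and 2.12 CPM, Timp3 at 2.52 and 3.01 CPM and the membrane inhibitor Reck at 1.51 and 2.53 CPM. Of the MMP and TIMP genes looked at, the members were thus those past 20 CPM over all cells. Within classes, Timp3 stood at 22.64 CPM in DMSO and 11.25 CPM in DAB in granulocyte progenitor-like cells. Reck stood at 10.4 and 15.3 CPM in intermediate granulocyte-like cells.

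Genes that work with the members were read from lists drawn up for this purpose, over all cells and by the same 2-fold rule (2.5% of genes higher and 2.67% lower). Of 5 pro-MMP activation and plasminogen genes counted, 1 was higher, the plasminogen activator inhibitor Serpinb2 (84.2 and 222 CPM, log2 ratio 1.40, 1.36 to 1.43), and none was lower. The urokinase receptor Plaur stood at 408 and 789 CPM, a log2 ratio of 0.95, the plasminogen receptor Plgrkt at 129 and 74.4 CPM (-0.80), and the pro-MMP convertase Furin at 110.2 and 98.9 CPM (-0.16). Of 8 surface partners and clearance genes 1 was lower, the endocytic receptor Lrp1 (71.2 and 25.2 CPM, log2 ratio -1.5, -1.56 to -1.44), which takes up MMP and TIMP complexes. The partner of Mmp9 in neutrophils, Lcn2, stood at 1984 and 1572 CPM, a log2 ratio of -0.34.

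Related proteases were set beside the same shares of all genes (2.5% higher and 2.67% lower). None of 5 ADAM genes and none of 8 cathepsins counted passed the 2-fold rule. For so few genes that is near the shares of all genes, so nothing was read from it. The largest ratios were those of Adam9 (-0.53), Adam15 (0.49), Ctsc (-0.86) and Ctss (-0.86). Of 7 neutrophil serine proteases and serpins counted, 1 was higher, the elastase inhibitor Slpi (686 and 1715 CPM, log2 ratio 1.32, 1.31 to 1.33), and none was lower, with Elane at -0.84 and Ctsg at 0.90. Of 7 counted genes on a list drawn up as tertiary granule partners of Mmp9, none was higher and 5 were lower. These were Hp (-2.28), Fcnb (-1.81), Ptx3 (-1.44), Cybb (-1.29) and Arg1 (-1.11), with a list median of -1.29. The granule that stores each product was not checked, so no granule programme was read from the list. Itgam stood at 0.36 and Slc11a1 at 0.46, and Arg1 and Ptx3 were also among the leading genes of the immature monocyte-like cluster A, whose share of cells was 11.8% and 4.21%. Hp was among the leading genes of cluster N, with 6.17% and 0.983% of cells. Fcnb was a marker of the intermediate granulocyte-like class, with 9.41% and 2.02% of cells. The part of these shares in the ratios was not tested.

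Genes of AP-1 and ETS factors, the latter with Spi1 for PU.1, were read in the same way. Factors of the C/EBP and GC box letters were not on the list. Of 11 AP-1 and ETS genes counted, none was higher and 2 were lower, Fos (37.8 and 7.71 CPM, log2 ratio -2.29, -2.39 to -2.19) and Atf3 (56.7 and 24.0 CPM, -1.24, -1.30 to -1.18). Ets1 stood at -0.98, and Spi1, which encodes PU.1, at 298.5 and 409 CPM, a log2 ratio of 0.45. Mmp13 and Mmp12, whose windows above hold AP-1 letters, differed in opposite directions over all cells, at 1.36 and -1.07.

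Some members overlap other genes. The counting used Cell Ranger's SC5P-R2 mode, which reads strand, and Timp1 (in Syn1), Mmp19 (Tmem198b and Gm47093) and Mmp12 (Mmp1b) overlap genes of the other strand. Timp2 overlaps Cep295nl on its own strand, and that gene held 10 UMIs in DMSO and 22 in DAB against 5057 and 8473 for Timp2.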

How the data were processed

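Per the labels and the study's methods, the authors aligned 10x Genomics 5′ reads of both libraries with Cell Ranger 7.0.0 to mm10 and deposited filtered matrices of UMI counts, 1 row a gene and 1 column a cell barcode, with no normalization; their own steps used Seurat 4.3.0 in R 4.1.2. The matrices held 9855 DMSO and 11631 DAB barcodes with 106792967 and 165506902 UMIs.

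Here, barcodes over 10% mitochondrial UMIs (55 and 89) or beyond 4 median absolute deviations (7 and 10) were left out, and 768 and 1066 barcodes were removed as doublets by their score against simulated doublets. Pearson residuals of the 3000 most variable genes, without 26 Mmp and Timp genes, gave 40 principal components, which were aligned by mutual nearest neighbours and clustered by Leiden at resolution 0.9 with leidenalg 0.10.2 on igraph 0.11.9 (seed 1), after cell cycle and mitochondrial scores were regressed out. Other steps used Python 3.11.15 with pandas 2.3.3, numpy 2.4.6 and scipy 1.17.1, and figures matplotlib 3.10.9. A cluster took the class whose markers had the highest mean log2 fold over the other cells (10 CPM added), if at least 3 markers and most of those detected had a log2 fold of 1 and no other class had more markers among its top 10 genes. For a granulocyte name, S100a8 or Csf3r had to exceed its level in the remaining cells too.

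UMIs were summed per library and class. CPM has exact Poisson and a ratio exact conditional binomial 95% intervals, and shares have Clopper-Pearson intervals, all for counting error only. A difference was called at a log2 ratio of 1 with an interval that leaves out 0, among genes with 20 CPM in a library, in classes with 200 cells of each library. Levels are given for classes with 50 cells of each. For shares of cells with a UMI, cells were thinned to 1500 UMIs, and 436 shallower cells of DMSO and 289 of DAB were dropped. The ratio and thinning steps were tested on simulated data. The members, marker lists and pathway lists were chosen with earlier results of these data known. Of each pathway list, at most the 3 genes of largest ratio in each direction were to be named, and for each member the 3 genes most like it over DMSO clusters; 1 of these genes is not reported here. Cybb and Arg1 of the tertiary granule list, the genes of the chromosome 9 run and the sparse genes Mmp2, Mmp27, Timp3 and Reck were named after their values were seen. So were the companions of Mmp9 and Mmp13 in single cells. Alternatives were other resolutions, no alignment, Mmp and Timp genes allowed in the clustering, the nearest class for every cluster, no doublet removal, no cell filters, other scalings, other thinning depths and a log2 limit of 0.5.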

Additional observations from a re-analysis of the deposited data

How the results depend on the processing

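No paired analysis was possible because there is 1 library per condition. Over all cells, 1 member was higher in DAB, 2 with equal weight for every cell (Mmp13 and Mmp9) and 3 at a log2 limit of 0.5, and 3 to 4 were lower in every setting tried. Scaling by the median of ratios moved every log2 ratio by 0.02. By class, the 6 higher and 16 lower calls became 4 to 9 and 8 to 21 over the alternatives, in which the number of classes large enough ran from 4 to 9. With no alignment 8 calls were lower, from 4 classes and 22 pairs, and with the nearest class for every cluster 9 were higher and 21 lower, from 9 classes and 59 pairs. Without cluster R, an alternative chosen after seeing the data, 6 were higher and 15 lower. The same class led in both libraries for 5 to 7 members. In mature PMN-like cells the log2 ratio of Mmp12 ran from -2.54 to 0.04366, the last with no doublet removal, where its direction turned; the cause was not tested. The ratio of Mmp25 in intermediate granulocyte-like cells was 0.74, short of the limit, with the nearest class for every cluster, and that of Mmp9 in chemokine-high granulocyte-like cells was 0.87 with no alignment. In immature monocyte-like cells Mmp9 ran from 1.50 to 4.05 and Timp1 from -3.70 to -3.47 over the alternatives. Each of these Timp1 ratios was smaller in size than the -4.09 of the main clustering. The ratio of Timp1 in chemokine-high granulocyte-like cells was -2.27 with no doublet removal. Depth limits Timp1 most, with 566 UMIs in DAB.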
